A study of Mus musculus with 3 samples.

Results

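The genes described here encode Janus kinases (JAKs) and signal transducers and activators of transcription (STATs). They are the 3 kinase genes Jak1, Jak2 and Jak3 and the 6 factor genes Stat2, Stat3, Stat4, Stat5a, Stat5b and Stat6, 9 of 23282 entries in the deposited files, picked by symbol. They do not cover every gene of the JAK and STAT families. Bone marrow was taken from male C57BL/6 mice of wild type genotype, 6 weeks old, gavaged with sterile water for 28 days and collected on day 29. Red blood cells were lysed first, and the labels name no sort of cell types. The series sets this vehicle against Asari Radix et Rhizoma, a wild ginger root and rhizome of herbal medicine. Samples given the herb were not analysed here. The data are 3 libraries of 1 group and no value below compares treatments. Nothing in the labels says that the libraries came from separate mice, and p-values then measure only the spread between these samples, which may be technical.

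Cytokine receptors of the type that governs blood formation carry no kinase domain of their own. JAKs bound to their tails phosphorylate each other and the receptor when a ligand brings the chains together. STATs dock on the receptor through an SH2 domain, are phosphorylated by the JAKs, pair up and enter the nucleus, where they bind DNA and switch on target genes that include their own inhibitors. In marrow, JAK2 serves the receptors for erythropoietin and for the IL-3 and GM-CSF family, JAK1 and JAK3 act together on receptors with the common gamma chain, and STAT3 acts downstream of the G-CSF receptor. The activity of these proteins rests on phosphorylation, which RNA levels do not measure.

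RNA was read from the polyadenylated end of transcripts, so each transcript gives about 1 fragment and levels of different genes can be set side by side without a length correction. Levels are in CPM, reads per 1000000 gene-assigned reads of a library. The libraries held 8104828 to 9168435 such reads, and 0 reads in the shallowest would still leave room for 0.370 CPM. Of 8 marker lists for marrow cell types, erythroid genes (66540 to 99969 CPM summed over 6 genes) and neutrophil genes (66168 to 87889 CPM over 7 genes) stood highest, and 0 of 45 markers lacked reads in any library. Compared with the other libraries, replicate 1 was shifted upward on this scale, by 0.15 (log2) for the median gene, and by 0.01 after trimmed-mean (TMM) scaling, so the calls for the 9 genes are given on both scales.

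Jak1 was by far the most abundant of the 9 genes, and Stat3 the most abundant STAT. Jak1, which encodes a kinase used by gp130, interferon and common gamma chain receptors (GRCm38 chromosome 4, 101152367 to 101265282, minus strand), had 491, 504 and 444 CPM in replicates 1, 2 and 3, from 4506, 4083 and 4056 reads. Its mean of 480 ± 31.6 CPM (SD, n = 3) was above that of 98.7% of the 11833 entries with at least 30 reads. Stat3, a factor activated by IL-6 family cytokines and G-CSF (chromosome 11, 100885098 to 100939540, minus strand), had 182, 132 and 119 CPM, a mean of 144 ± 33.2. Jak1 exceeded Stat3 by 3.32-fold on average, and their ranges did not overlap. The summed level was 527 ± 36.8 CPM for the 3 JAK genes and 280 ± 52.5 CPM for the 6 STAT genes, or 0.0527% and 0.0280% of all reads.

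**Figure D1:**
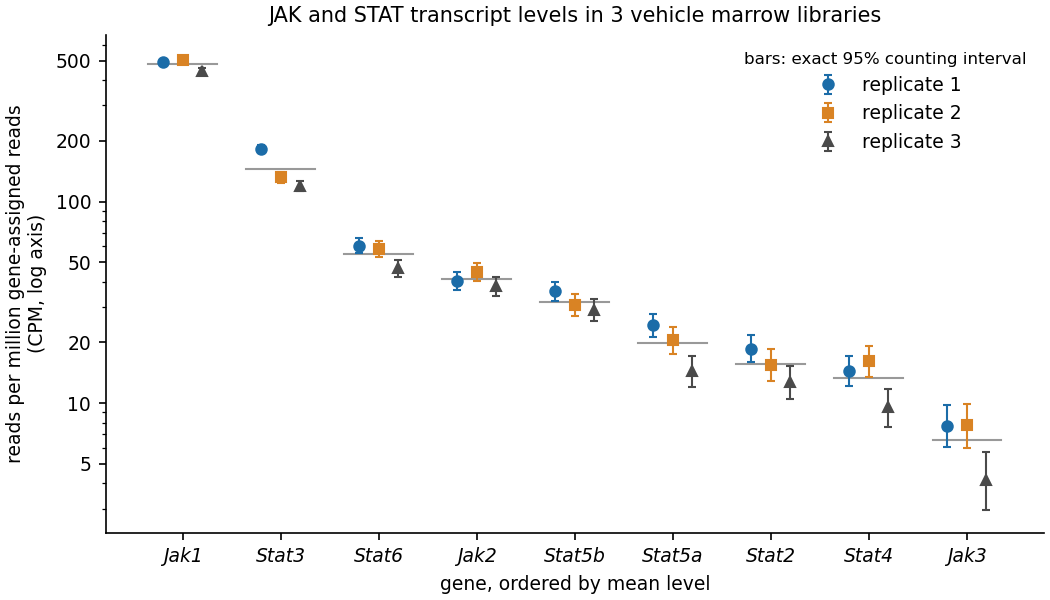
Transcript levels of the 9 genes, ordered by mean, in CPM on a log axis. Points are the 3 libraries, bars their exact 95% counting intervals, and grey lines the means, which run from 480 CPM for Jak1 to 6.56 CPM for Jak3.

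The other 7 genes lay between 6.56 and 55.2 CPM. Stat6, the factor of IL-4 and IL-13 signalling, averaged 55.2 ± 7.51 CPM, and Jak2, the kinase of the erythropoietin receptor, 41.2 ± 3.50 CPM. Stat5b and Stat5a, near-identical factors used by many growth factor receptors, averaged 31.9 ± 3.56 and 19.8 ± 4.99 CPM. Stat2, the interferon factor, averaged 15.6 ± 2.98 CPM, Stat4, the factor of IL-12 signalling in T and NK cells, 13.4 ± 3.46 CPM, and Jak3, the kinase of the common gamma chain, 6.56 ± 2.08 CPM. In this order each gene's range lay wholly above that of the next, with exceptions among the lower levels. Stat5a overlapped Stat2 in range, although it was the higher of the pair in 3 of 3 libraries. Stat2 overlapped Stat4 and was the higher in 2 of 3 libraries, so their order is not settled by these data.

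Ratios between genes of 1 library do not depend on scaling, and the shares of Jak1 and Jak2 among JAK reads had overlapping intervals in the 3 libraries. Jak1 made up 91.0%, 90.5% and 91.3% of JAK reads in replicates 1, 2 and 3, and the exact 95% Clopper-Pearson intervals, from 89.6% to 92.1% over all libraries, overlapped. It exceeded Jak2 by 12.1-, 11.2- and 11.7-fold, a log2 ratio of 3.54 ± 0.06 (SD, n = 3). All 3 libraries had it above 0 (exact permutation by sign flips, two-sided p = 0.25, and a design of 3 libraries allows no lower value). Jak3 held 1.43%, 1.40% and 0.856% of JAK reads. Its interval in replicate 3, 0.606% to 1.17%, overlapped those of the other libraries, which began at 1.12% and 1.08%.

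Among the STAT genes, the share of Stat3 differed between libraries. Stat3 held 54.2%, 48.2% and 51.5% of STAT reads, and the interval of replicate 1 (52.4% to 55.9%) lay above that of replicate 2 (46.1% to 50.3%). Stat2 held a near-constant 5.55%, 5.69% and 5.48%. Stat5b exceeded Stat5a by 1.475-, 1.497- and 2.008-fold, a log2 ratio of 0.72 ± 0.25 (SD, n = 3) with an exact sign-flip p of 0.25. Reads of the JAK genes outnumbered those of the STAT genes 1.61-, 2.03- and 2.10-fold. That ratio was lowest in replicate 1 with Stat3 left out as well, at 3.51, 3.93 and 4.33. The excess of JAK reads was that of Jak1: with Jak1 and Stat3 both left out, the ratio was 0.314, 0.372 and 0.375.

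On library totals 7 of the 9 genes differed between libraries past counting noise, against 56.5% of the 11833 entries tested (exact binomial test of each library against the pooled others, adjusted over all entries). With TMM scaling 6 of 9 did, against 51.8%. All 9 genes were lowest in replicate 3 on library totals, where 42.4% of tested entries were lowest, and 7 of 9 with TMM scaling, where 32.4% were. Genes that passed the test and were lowest in replicate 3 numbered 7 of 9 on library totals and 5 of 9 with TMM scaling, against 26.2% and 16.3% of entries. The members can share whatever sets a library apart, so these counts describe 3 libraries and carry no test of their own. In bulk RNA, fewer cells of a type and less RNA per cell cannot be told apart.

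**Figure D2:**
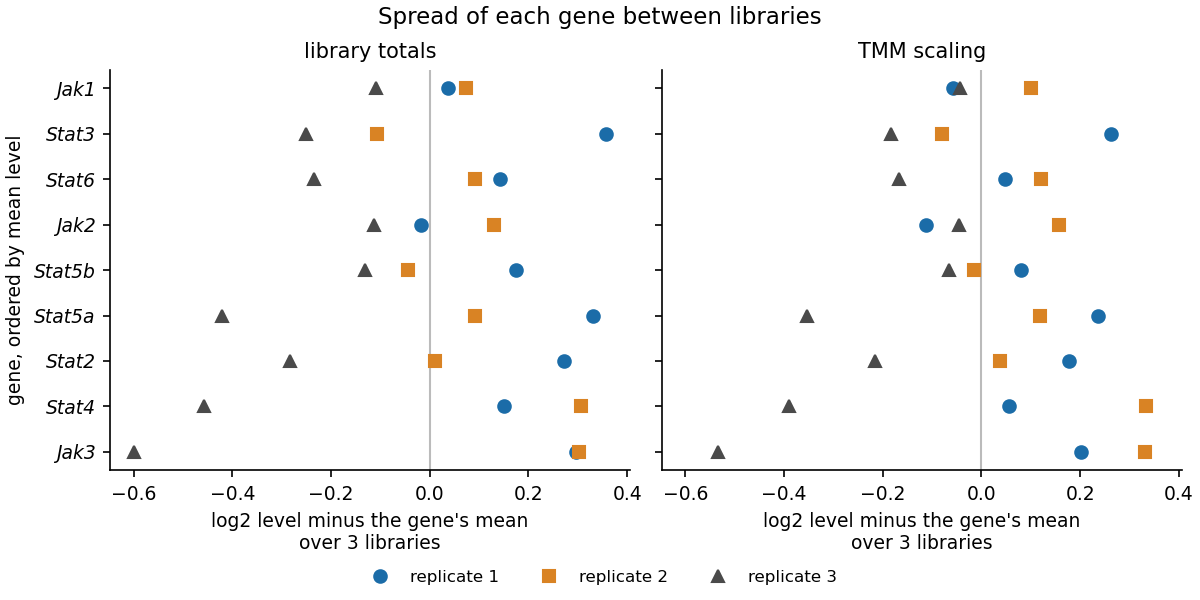
Each gene's log2 level minus its mean over the 3 libraries, on library totals (left) and with TMM scaling (right). Replicate 3 (triangles) is the lowest for 9 of 9 genes on the left and for 7 of 9 on the right, where Jak1 and Jak2 are lowest in replicate 1.

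Calls for these genes rested mostly on replicate 3. Without it 1 of 9 genes passed, Stat3, against 38.5% of entries. Without replicate 1, 5 of 9 passed, against 34.8%, and without replicate 2, 8 of 9, against 39.0%. Jak3 showed this most plainly: it had 71, 63 and 38 reads, or 7.74, 7.77 and 4.16 CPM, so replicates 1 and 2 were nearly equal and replicate 3 stood apart. Its level there was 0.536 times that of the pooled others (95% interval 0.364 to 0.774, exact binomial adjusted p = 0.00335), and without replicate 3 the adjusted p was 1. It was also lowest in replicate 3 with TMM scaling (0.577 times, exact binomial adjusted p = 0.0147).

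Among the kinases, Jak1 differed little in size although its many reads made small differences detectable. It was 0.893 times as high in replicate 3 as in the others (95% interval 0.860 to 0.927, exact binomial adjusted p = 6.48e-08), with a coefficient of variation (CV) of 6.59%. With TMM scaling replicate 2 stood apart instead, at 1.11 times the others, and replicate 1 was lowest. Without replicate 3 Jak1 did not pass on library totals (exact binomial adjusted p = 0.386). Jak2 had 40.6, 44.9 and 38.0 CPM from 372, 364 and 347 reads and did not pass (exact binomial adjusted p = 0.165, or 0.0645 under TMM). Its highest library, replicate 2, was 1.14 times the others with an interval of 1.01 to 1.30. Of the JAK genes, then, the low-level Jak3 had the widest spread (CV 31.7%, where counting alone would give about 13.2%).

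Stat3 was the member whose call did not need replicate 3. Replicate 1, at 182 CPM, stood 1.45-fold above the pooled others (95% interval 1.36 to 1.55, exact binomial adjusted p = 1.75e-27), and 1.32-fold with TMM scaling. Replicates 2 and 3, at 132 and 119 CPM, did not differ past the threshold once replicate 1 was left out (exact binomial adjusted p = 0.0585). The CV of Stat3 was 23.0% with 3 libraries and 7.03% without replicate 1, and counting alone would give about 2.8002%.

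Stat4, Stat5a and Stat6 were lower in replicate 3 on both scales. Stat4 (chromosome 1, 51987148 to 52107189) had 14.5, 16.2 and 9.52 CPM, and replicate 3 was 0.623 times the others (95% interval 0.483 to 0.797, exact binomial adjusted p = 0.000834). Stat5a had 24.3, 20.6 and 14.4 CPM, 0.640 times the others in replicate 3 (0.521 to 0.781, exact binomial adjusted p = 7.17e-05). Stat6 (chromosome 10, 127642986 to 127660957) had 60.5, 58.5 and 46.6 CPM, 0.783 times (0.697 to 0.877, exact binomial adjusted p = 0.000211). For each of them replicates 1 and 2 lay closer to each other than to replicate 3, and without it none passed (exact binomial adjusted p = 0.527, 0.210 and 0.716). Stat5b, at 35.9, 30.8 and 29.003 CPM, did not pass (exact binomial adjusted p = 0.0536). It passed without replicate 2 (0.0310), and with TMM scaling its adjusted p was 0.829.

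The interferon factor gene Stat2 fell between the clear cases. It had 171, 126 and 116 reads, or 18.7, 15.5 and 12.7 CPM, and was 0.738 times as high in replicate 3 as in the others (95% interval 0.591 to 0.918, exact binomial adjusted p = 0.0300). With TMM scaling it stayed lowest in replicate 3 but did not pass (exact binomial adjusted p = 0.166), nor did it without replicate 1 or replicate 3 (0.229 and 0.231). The gene lies on chromosome 10, 128270559 to 128292849, on the plus strand. Its promoter is shown because it is the promoter among these genes with the most matches to the DNA motifs that this pathway reads.

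The motifs searched, on both strands, were TTC and GAA with any 3 bases between (the interferon-gamma activated site of most STATs), TTC and GAA with any 4 bases between (the spacing preferred by STAT6) and GAAA and GAAA with any 2 bases between (the core of the interferon-stimulated response element, bound by STAT2 complexes and interferon regulatory factors). Promoter windows from 250 bases before to 50 after each start, taken from RefSeq on GRCm38.p6, numbered 12 for the 9 genes and 32851 in all. The 3-base spacing was in 0 of the 12 and in 8.30% of all windows, the 4-base spacing in 1 of 12 and 6.95%, and the response element core in 2 of 12 and 3.44%. In the Stat2 window, chr10:128270248-128270547, plus strand, capitals mark a response element core on the other strand, starting at base 29 of the window, and a TTC and GAA pair with 4 bases between, starting at base 41, the pair not overlapping. In the second of the Stat4 windows, chr1:52007990-52008289, plus strand, capitals mark a response element core starting at base 154. These matches are descriptions of the letters only.
Stat2: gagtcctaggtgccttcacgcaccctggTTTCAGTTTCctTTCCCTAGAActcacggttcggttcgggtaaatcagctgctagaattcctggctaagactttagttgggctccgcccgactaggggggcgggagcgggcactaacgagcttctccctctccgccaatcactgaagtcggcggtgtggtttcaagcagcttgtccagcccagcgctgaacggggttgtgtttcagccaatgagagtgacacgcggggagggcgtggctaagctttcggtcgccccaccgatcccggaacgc
Stat4: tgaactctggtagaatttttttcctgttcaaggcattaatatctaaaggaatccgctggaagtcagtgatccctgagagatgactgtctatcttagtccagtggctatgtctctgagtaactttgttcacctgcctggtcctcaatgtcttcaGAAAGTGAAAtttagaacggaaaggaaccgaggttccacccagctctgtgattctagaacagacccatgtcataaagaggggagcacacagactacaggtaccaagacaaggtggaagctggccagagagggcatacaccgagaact

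The STAT genes had a wider spread between libraries than the JAK genes by their medians, which rest on few genes. The median CV was 8.51% for the JAK genes and 21.01% for the STAT genes, against 17.1% over all tested entries, and 9.91%, 15.1% and 16.2% with TMM scaling. On library totals, the highest library exceeded the lowest by more than 1.5-fold for 3 of the 8 members with at least 300 reads. These were Stat3 at 1.53, Stat4 at 1.698 and Stat5a at 1.68. With TMM scaling the same genes had 1.36, 1.65 and 1.505, so Stat3 fell below 1.5-fold. Of the 7128 entries with at least 300 reads, 19.6% passed 1.5-fold on library totals. Stat3 combined a high level with a CV above the 13.2% median of those entries, while Jak1, of still higher level, lay below it.

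**Figure D3:**
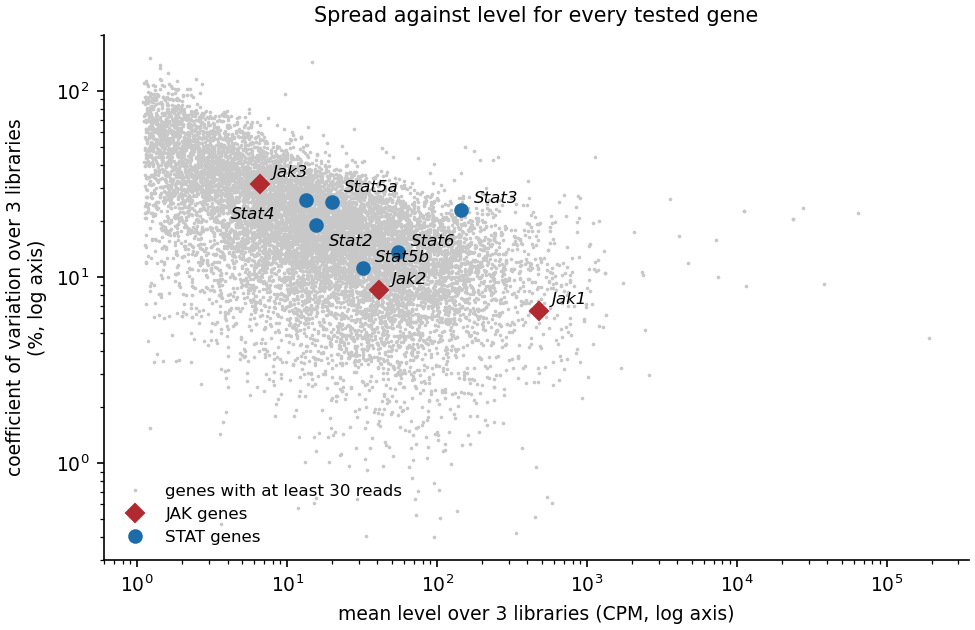
Coefficient of variation over the 3 libraries against mean level, both on log axes, for all 11833 tested entries (grey) and the 9 genes. Jak1 sits at 480 CPM and 6.59%, Stat3 at 144 CPM and 23.0%, and Jak3 at 6.56 CPM and 31.7%.

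The members lie close to each other or to other genes in ways that matter for reads taken at transcript ends. Stat5b (chromosome 11, 100780731 to 100850724, minus strand), Stat5a (100859351 to 100885169, plus strand) and Stat3 are neighbours. In the GENCODE annotation the last 72 bases of Stat5a and Stat3 overlap on opposite strands, while in RefSeq the same ends are 1636 bases apart. Strand use in the authors' counting is not given, so reads in that overlap cannot be told apart. Reads that reach the near-identical coding sequences of Stat5a and Stat5b could also be shared between them. Likeness of their transcript ends, from which RNA was read, was not compared. Stat5a had 223, 167 and 132 reads where Stat3 had 1668, 1068 and 1090, so replicate 3 had fewer Stat5a reads than replicate 2 and slightly more Stat3 reads. None of the 18 entries listed next to a member held reads within 2% of it in every library.

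**Figure D4:**
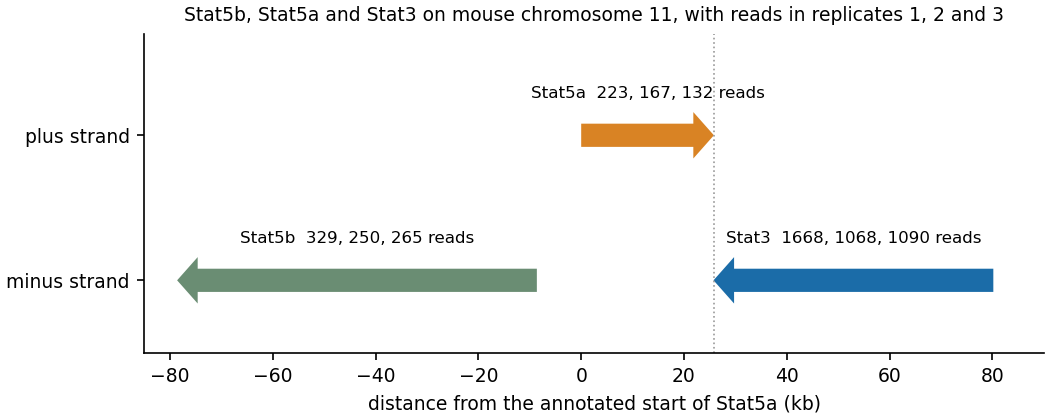
Map of Stat5b, Stat5a and Stat3 on chromosome 11, drawn to scale as distance from the annotated Stat5a start, with arrows in the direction of transcription and reads in replicates 1, 2 and 3. The ends of Stat5a and Stat3 meet at the dotted line, where 72 annotated bases overlap.

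Other ends met genes outside the families. Stat6 overlaps the last 40 bases of Nab2, a transcriptional co-repressor gene, on the opposite strand, and the levels of Nab2 were 18.7, 14.2 and 13.02 CPM, which differed (adjusted p = 0.0117, exact binomial). Jak1 overlaps Raver2, on the opposite strand, by 4 bases in the GENCODE annotation. RefSeq carries the Jak1 end further into that Raver2 span, to base 101151974 rather than 101152367. Raver2 had 9.93, 10.2 and 17.3 CPM, highest in replicate 3, where Jak1 was lowest on library totals and next to lowest with TMM scaling. Insl3, a testis hormone gene, lies within the annotated Jak3 span on the same strand, ends at the same base and had 0 reads in every library. The 2 genes share 1362 annotated bases at that end, where strand cannot tell their reads apart. How the authors' counting treated such reads is not given, so the low level of Jak3 carries this limit too. Unc13a, B3gnt3, Apof and Il23a, within 5000 bases of Jak3 or Stat2, had fewer than 30 reads in all.

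Genes with the pattern most like each member were sought among the 7128 entries with at least 300 reads, by the Euclidean distance between log2 CPM profiles centred over the 3 libraries. With so few libraries many entries come close. Within a distance of 0.1 there were 721 entries for Jak1 and 434 for Stat6, but 51 for Stat4 and 10 for Jak3. Nearest to Jak3 were Mfsd11 (15.6, 16.0 and 8.54 CPM) and Tob2, and nearest to Stat3 were Usp22 (48.8, 34.9 and 31.7 CPM) and Zfp592. Nearest to Stat5a was Eps15l1. The nearest entries to Stat4 were Chid1 and Kdm5d, to Stat6 Nasp and Ino80c, to Stat2 Pif1 and Lsm14b, and to Jak1 Zcchc17 and Gpr108.

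Around the 9 genes, 11 lists of receptors, inhibitors and targets held 88 other genes, of which 76 had at least 30 reads and 47 differed between libraries (61.8%, against 56.5% of all tested entries). Counts in the single lists below are to be set against the same 56.5%, or 51.8% with TMM scaling, and rest on few genes. Without replicate 1 the number over all lists was 30 of at most 76, against 34.8% of tested entries. Without replicate 3 it was 26 of at most 76, against 38.5%. Their lowest library varied: 33 of 76 were lowest in replicate 3, 26 in replicate 2 and 17 in replicate 1, or 28, 21 and 27 with TMM scaling. The 12 genes under 30 reads were Arg1, Ccl17, Ccl24, Ghr, Ifng, Il12rb1, Il23r, Il27ra, Il9r, Osmr, Prlr and Retnla, and Il23r had 0 reads in all 3 libraries.

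**Figure D5:**
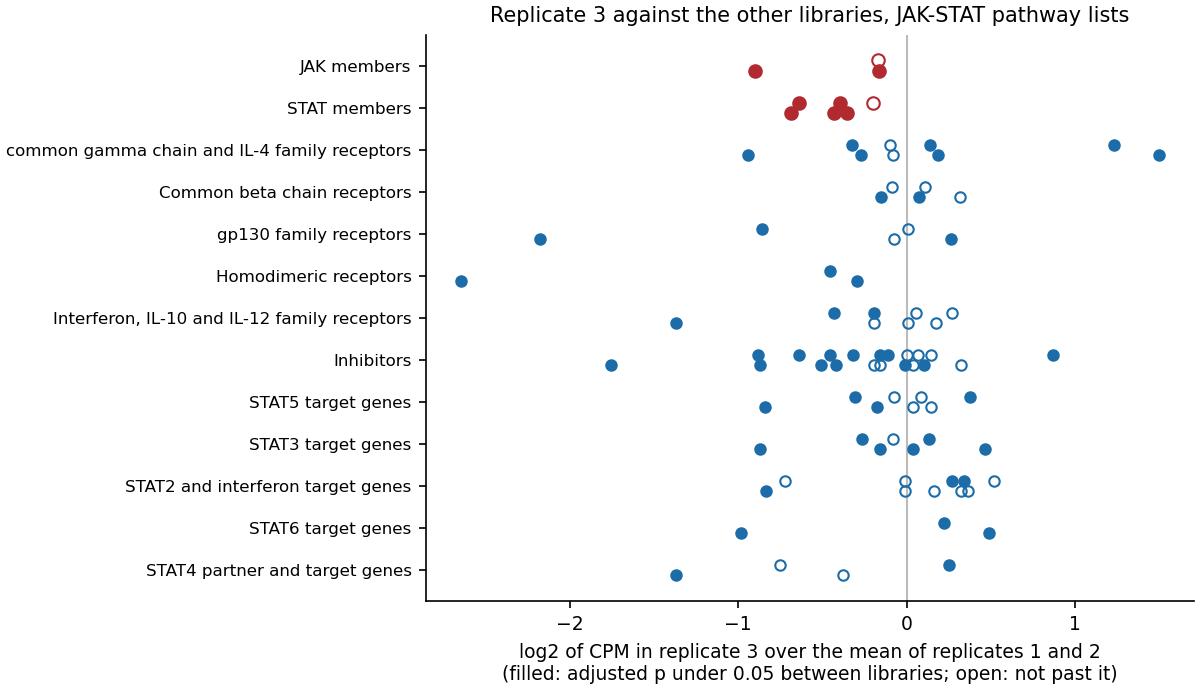
Log2 of the level in replicate 3 over the mean of replicates 1 and 2, on library totals, for each tested gene of the JAK and STAT members (red) and the pathway lists (blue). Filled points passed the test between libraries and open points did not. The members all lie left of 0, and each of the lists except the homodimeric receptors has points on either side.

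Within the lists of common beta chain and homodimeric receptors, which signal through JAK2, the GM-CSF receptor genes had the highest levels. Of the common beta chain receptors, Csf2ra, the GM-CSF binding chain, had 285 ± 27.7 CPM (SD, n = 3) and the shared chain Csf2rb 84.9, 53.9 and 72.999 CPM, and these were the 2 of 5 that passed. The IL-5 receptor gene Il5ra had 5.24, 8.39 and 7.33 CPM and passed with TMM scaling alone (exact binomial adjusted p = 0.0189). All 3 tested homodimeric receptors passed. The erythropoietin receptor gene Epor had 12.8, 19.5 and 13.1 CPM, highest in replicate 2, and the G-CSF receptor gene Csf3r 18.1, 10.4 and 10.4 CPM, highest in replicate 1.

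Of the receptors that use JAK1, the interferon and IL-7 chains stood highest. Among common gamma chain and IL-4 family receptors 7 of 9 tested passed, 3 of them lowest in replicate 3 and 3 in replicate 2. The IL-7 receptor gene Il7r had 104, 106 and 84.1 CPM, the IL-2 receptor alpha chain gene Il2ra 19.6, 20.4 and 10.4 CPM, and Crlf2 64.9, 52.2 and 64.5 CPM. The shared gamma chain gene Il2rg, whose product binds JAK3, had 34.8, 39.1 and 34.5 CPM and did not pass (exact binomial adjusted p = 0.310), and Il4ra averaged 41.6 ± 3.50 CPM. Il2ra thus had a low replicate 3 like Jak3, while for Il2rg replicates 1 and 3 were nearly equal.

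Among gp130 family receptors 3 of 5 passed. Lifr had 17.02, 19.99 and 10.2 CPM, and the leptin receptor gene Lepr, a marker of marrow stroma, 7.31, 10.5 and 1.97 CPM, a 5.32-fold range. The IL-6 receptor gene Il6ra went the other way, at 43.0, 43.2 and 51.7 CPM, and Il11ra1 averaged 20.95 ± 0.567 CPM. Of the interferon, IL-10 and IL-12 family receptors 3 of 8 passed on library totals and 2 with TMM scaling. Ifngr1 had 129 ± 2.35 CPM and Ifnar2 116 ± 12.4 CPM, and Il10ra averaged 22.9 ± 1.06 CPM. Ifnar2 passed on library totals but not with TMM scaling (exact binomial adjusted p = 0.179). Il10rb had 20.6, 16.0 and 13.6 CPM and likewise passed on library totals alone (0.0825 with TMM scaling).

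The 20 inhibitor genes of the pathway together outnumbered the 3 kinase genes in reads, through 3 phosphatase genes. The other inhibitor genes summed to less than the kinase genes. The 20 genes summed to 1448 ± 113 CPM, led by the phosphatase genes Ptprc (CD45, 584 ± 57.9 CPM), Ptpn6 (SHP-1, 219 ± 12.6 CPM) and Ptpn1 (215 ± 24.8 CPM). Of the 20, 13 passed, against 56.5% of all tested entries, and 11 with TMM scaling, against 51.8%. On library totals 8 of the 20 both passed and were lowest in replicate 3, against 26.2% of entries. Socs3, an inhibitor that STAT3 induces, had 51.4, 44.5 and 26.3 CPM (exact binomial adjusted p = 3.52e-16). Socs7 had 43.5, 25.4 and 24.2 CPM, a single high library in replicate 1 as for Stat3. Pias2 and Ptpn2 had a 2.12-fold and a 1.73-fold range and were lowest in replicate 3. Socs4, at 8.62, 16.0 and 8.97 CPM, was high in replicate 2 alone, and Pias4, at 4.69, 3.82 and 7.77 CPM, was highest in replicate 3.

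Target genes did not share 1 order with the factors listed for them. Of 7 STAT3 targets 6 passed: Mcl1, a survival gene, had 546, 427 and 405 CPM, with the high replicate 1 of Stat3, but Junb had 502, 503 and 449 CPM and Bcl3 20.3, 13.4 and 18.5 CPM, and Cebpd averaged 80.1 ± 8.38 CPM. Of 8 STAT5 targets 4 passed. The survival gene Bcl2l1, which erythroid cells use, had 42.8, 77.5 and 77.9 CPM, lowest in replicate 1, whereas Pim1 had 181, 190 and 164 CPM and Pim2 8.51, 6.79 and 4.27 CPM. Bcl6 averaged 29.4 ± 3.28 CPM and passed with TMM scaling alone. Erythroid markers were lowest in replicate 1 too, at 66540 CPM summed against 98801 and 99969, and their part in the Bcl2l1 values was not tested.

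Most interferon targets had another order of libraries than Stat2. Of 10 tested, 3 passed on library totals and 5 with TMM scaling, and 7 were lowest in replicate 1 on both scales, the library where Stat2 was highest on both. Rsad2, an antiviral enzyme gene, had 228, 311 and 324 CPM (adjusted p = 5.58e-38, exact binomial) and the ubiquitin-like gene Isg15 29.3, 37.1 and 42.0 CPM. Irf9, whose product joins STAT2 on DNA, had 65.2, 69.2 and 66.9 CPM, and Ifit1 had 5.13, 7.77 and 3.61 CPM. Of 7 STAT6 targets 3 had enough reads. Chil3, also a neutrophil and monocyte gene, averaged 1027 ± 99.0 CPM, the mannose receptor gene Mrc1 had 50.6, 59.2 and 27.8 CPM and Fcer2a 15.3, 10.6 and 18.2 CPM. Of the STAT4 partners and targets 2 of 4 tested passed, and these went opposite ways. Il18rap (53.6 ± 5.66 CPM) was highest in replicate 3. Il12rb2, with 25, 10 and 7 reads or 2.73, 1.23 and 0.766 CPM, was lowest there (exact binomial adjusted p = 0.00776). Il18r1 (10.1 ± 1.49 CPM) was lowest there without passing, and Tbx21 averaged 2.23 ± 0.788 CPM.

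Marker lists that moved with replicate 3 are given with their values, and their part in the member values was not tested. Stroma and endothelium markers were lowest in replicate 3 for 4 of 4 genes (243.8, 220.1 and 165.8 CPM summed in replicates 1, 2 and 3, with Lepr among them), B cell markers for 4 of 7 (600.3, 608.4 and 496.9 CPM) and megakaryocyte markers for 2 of 4 (372.1, 307.2 and 266.7 CPM). Stem and progenitor markers summed to 330.4, 323.8 and 264.4 CPM, a sum made up mostly of Myb, the 1 of 4 that was lowest in replicate 3. T and NK cell markers, from cells where Stat4 and Jak3 are known to act, were instead highest in replicate 3 for 5 of 7 genes. Their sums were 68.1, 58.9 and 83.9 CPM, mostly Nkg7. Stat4 and Jak3 were lowest in replicate 3 on both scales. Of the 4 markers that passed, 3 were highest in replicate 3. The other, Ncr1, was lowest there, at 2.73, 1.85 and 0.219 CPM (exact binomial adjusted p = 8.48e-05). Monocyte and macrophage markers were highest there for 3 of 6 genes and in replicate 1 for the other 3. Their sums were 1076, 1011 and 1210 CPM, of which Ly6c2 alone had 439, 429 and 599 CPM. Of the neutrophil markers, 0 of 7 were lowest there.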

How the data were processed

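Total RNA (500 ng) of 3 vehicle-treated marrow samples went into Lexogen QuantSeq libraries, per the labels' protocols. Bowtie2, bedtools and mm10 are named in the submitters' processing notes, and the sources used here give no versions, gene annotation, strand setting or normalization. The authors deposited 1 log2 value per gene symbol and library, read from the values as log2(x + 1). Removing the log left whole multiples of 1 read for 100% of values (tolerance 1e-06), which gave reads per gene. Relative to the recovered totals, the library sizes the authors divided by were 1.12, 1.03 and 1.01 times as large.

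Genes with at least 30 reads were tested by setting each library against the pooled others (exact binomial, two-sided), the smallest p times 3, with Benjamini-Hochberg adjustment over all entries at 0.05 (Python 3.11.15, scipy 1.17.1). TMM factors trimmed 30% of ratios and 5% of intensities. Fold intervals are exact 95% conditional intervals, and intervals and floors (3 counts) cover counting error only, since no molecular identifiers are named. The test was checked on simulated counts that held counting noise and set changes only. That check does not cover other spread between libraries. Positions are from GENCODE M21. Left out of the tests were genes under 30 reads.

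The members and lists were chosen with earlier results of these data known. All 9 members are named; of each list, the 3 most abundant genes and those past the test with over a 1.5-fold range and a mean of at least 5 CPM; the 2 genes most like each called member; and genes within 5000 bases. Neighbours without an entry in the files are not named. Some genes that meet these rules are not reported here. Il2rg, Il12rb2, Ncr1, the genes under 30 reads and the JAK to STAT ratio were added after their values were seen. Alternatives were other scalings, other minimums of reads, the chi-square test, a pseudocount of 1 and 1 library fewer.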

Additional observations from a re-analysis of the deposited data

How the results depend on the processing

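With each library left out in turn (fewest members without replicate 3, fewest genes without replicate 1), the genes that differed numbered 3866 to 4392 in place of 6687, the JAK and STAT members 1 to 8 in place of 7, and the pathway list genes 26 to 37 in place of 47. Fewer reads and 1 comparison per gene enter those tests. With the other scalings, read minimums and test, members passing numbered 6 to 8 of 9, or 7 of 8 with a minimum of 300 reads. All entries passing numbered 4798 of 7128 at that minimum and 7347 of 16040 with a minimum of 1 read. They numbered 6127 to 6182 of 11833 with the other scalings and 6967 of 11833 by the chi-square test. Without the 20 most abundant genes in the totals, the summed levels were 947 CPM for JAK and 501 CPM for STAT genes, since the denominator is smaller. The log2 ratio of Jak1 to Jak2 ranged from 3.51 to 3.57, and that of Stat5b to Stat5a from 0.57 to 0.79. Stat2 was called on library totals but not with TMM, median-of-ratios or reduced totals (exact binomial adjusted p = 0.166, 0.166 and 0.107), and Stat5b was called with a minimum of 300 reads (0.0461) and by the chi-square test (0.0462). No paired analysis was possible because there is only 1 group. Depth limits Jak3 most, with 172 reads in all.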
